A study of Mus musculus with 4 samples.

Results

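Immediate early genes are described here in 4 left ventricle libraries of C57BL/6J mice. The members are 10 of the 32285 genes in the count tables, taken by symbol: Fos, Fosb, Jun, Junb, Atf3, Egr1, Nr4a1, Myc, Ier2 and Ier3. The rule names genes and sets no threshold on their values, though the genes were proposed with earlier results of these data known. It takes the UMIs (unique molecular identifiers, 1 per captured transcript) summed over all barcodes of a library. A level is given as CPM, the UMIs of a gene per 1000000 UMIs of its library. The young mice were 3 to 5 months old and the aged mice 24 to 26 months, all labelled male and Wild-Type, and no transgene or drug is named for any group. Young I/R and aged I/R mice had ischemia for 45 min by surgery on the LAD, the coronary artery of the anterior wall, and then reperfusion for 24 h. Young sham and aged sham are called sham operations in the paper and sham conditions in the sample titles. Other labels give these mice as healthy with no alteration, so the labels alone do not settle whether the control mice had surgery. Each group is 1 library and the number of mice in it is not given. No test between groups was therefore possible, and every interval printed is a 95% interval that covers counting error only.

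Immediate early genes are genes that a cell transcribes within minutes of a growth factor, stretch, calcium or stress signal, from factors that are already present, and most of their transcripts are short-lived. Fos, Fosb, Jun, Junb and Atf3 encode leucine zipper proteins that pair to form AP-1 and related dimers. Egr1 encodes a zinc finger factor, Nr4a1 an orphan nuclear receptor and Myc the factor that drives ribosome production and growth with its partner MAX. Ier2 and Ier3 are early response genes, of which Ier3 is best known for a role in cell survival under stress. In the heart these genes are known for a brief wave after ischemia and reperfusion or pressure load, and the tissue here was taken a day after reperfusion began. Per the paper, each ventricle was dissociated before sequencing, and the part of that handling in the levels was not tested.

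Regulatory sequence was examined for 7 of the 10 members, in a RefSeq table of the GRCm38.p6 build that covers 250 bases before each transcript start. Egr1, Ier2 and Myc were left out, so the motif counts do not cover them. The 130 bases before the start are given here for these members, 5′ to 3′ on the strand of the gene, because the core of the cyclic AMP response element lay in most of them. A single transcript start was used per member. For Atf3 and Nr4a1 the window lies inside the annotated gene (chr1:191170296-191218039 and chr15:101254269-101274795), so other starts of these genes were not examined. Capitals mark this core (TGACG, or its complement CGTCA), the EGR site (GCGNGGGCG, either strand) and the TATA box (TATAAA).
Fos (chr12:85473760-85473889, + strand): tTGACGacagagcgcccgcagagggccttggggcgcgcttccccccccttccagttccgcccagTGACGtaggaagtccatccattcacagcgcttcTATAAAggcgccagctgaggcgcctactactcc
Fosb (chr7:19310046-19310175, - strand): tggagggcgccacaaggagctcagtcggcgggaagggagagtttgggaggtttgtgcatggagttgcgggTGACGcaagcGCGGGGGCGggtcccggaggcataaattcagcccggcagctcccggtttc
Jun (chr4:95052223-95052352, - strand): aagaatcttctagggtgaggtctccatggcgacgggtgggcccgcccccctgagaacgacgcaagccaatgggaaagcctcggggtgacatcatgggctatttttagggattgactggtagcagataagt
Junb (chr8:84978749-84978878, - strand): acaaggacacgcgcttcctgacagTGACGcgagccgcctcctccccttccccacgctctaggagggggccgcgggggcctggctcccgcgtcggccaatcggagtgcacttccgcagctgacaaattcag
Atf3 (chr1:191183334-191183463, - strand): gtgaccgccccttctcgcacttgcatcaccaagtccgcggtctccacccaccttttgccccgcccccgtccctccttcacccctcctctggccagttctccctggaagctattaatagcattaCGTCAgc
Nr4a1 (chr15:101266716-101266845, + strand): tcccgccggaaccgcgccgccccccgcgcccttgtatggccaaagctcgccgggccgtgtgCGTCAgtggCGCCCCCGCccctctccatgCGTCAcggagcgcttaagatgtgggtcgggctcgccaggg
Ier3 (chr17:35821583-35821712, + strand): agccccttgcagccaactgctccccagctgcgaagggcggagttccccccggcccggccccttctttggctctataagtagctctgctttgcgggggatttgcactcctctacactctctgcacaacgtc
The TGACG core lay within 250 bases of the start in 5 of the 7 members, Fos, Fosb, Junb, Atf3 and Nr4a1, and in 17.8% of all 32851 promoters of the table. Nr4a1 had 4 copies, the nearest to the start at base 40, and Fos had 2, at bases 66 and 129 before the start. An EGR site was found in 2 members, Fosb and Nr4a1, against 4.70% of all promoters. TATAAA was found in Fos alone, 33 bases before the start, against 12.4% of all promoters. None of the 7 held the full TGACGTCA (1.55% of all promoters, and each such match is also a TGACG match), the AP-1 site TGANTCA (6.75%), the E-box CACGTG (6.02%), the STAT site TTCNNNGAA (7.02%) or the CArG box of serum response factor (1.47%). These are matches of letters in a window on both strands, not sites shown to be bound, and the Jun and Ier3 windows, with no capitals, say nothing of sites elsewhere.

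The libraries held 91124 to 102883 barcodes and 25836175 to 66767829 UMIs, the fewest in young sham and the most in aged I/R. The median barcode had 244 UMIs in young sham against 374 in young I/R, and 391 in aged sham against 675 in aged I/R. Young sham stood apart in its nuclear RNA Malat1, at 7.34% of UMIs against 2.22% to 4.33% in the others, and young I/R in Gm42418, at 19.4% against 11.5% to 14.0%. Mitochondrial genes took 14.1% and 15.6% of UMIs in young I/R and aged sham, and 10.0% and 9.98% in young sham and aged I/R. Between 7.44% and 7.92% of the barcodes of a library also occurred in another library, and leaving these barcodes out kept each of the 40 member ratios within its counting interval. Fibroblast, endothelial, macrophage and cardiomyocyte markers, the cell types of the labels, were present in every library, with none of these genes at 0.

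In young mice 24 h after ischemia the members split into a group of clearly higher genes and a pair of lower ones. Atf3, Myc, Ier3 and Fosb were at least 2-fold higher after I/R, and Junb was 1.71-fold higher, whereas Jun and Egr1 were lower and Fos, Nr4a1 and Ier2 had intervals that include 0. Thus 4 of 10 members were at least 2-fold higher, where 2.72% of 13746 genes were, counting genes that reached 50 UMIs over both libraries. No member was at least 2-fold lower, where 24.5% of genes were. The median log2 ratio was 0.57 over the members and -0.48 over all genes, so this comparison was shifted downward for genes at large. Scaling by the median of gene-wise ratios, which adds 0.43 to every ratio, gave 5.80% of genes higher and 11.6% lower, with 5 members higher, Junb among them. The same shift puts the intervals of Fos, Nr4a1 and Ier2 above 0, so their lack of direction depends on the scaling. With barcodes weighted equally 3 members were at least 2-fold higher, as Fosb then had a log2 ratio of 0.96.

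In aged mice Myc and Atf3 again led with smaller ratios, and Fosb and Jun had the opposite sign. Myc and Atf3 were at least 2-fold higher after I/R, which is 2 of 10 members against 4.47% of 14981 genes. Egr1 was the 1 member at least 2-fold lower, against 2.03% of genes. The median log2 ratio was 0.40 over the members and 0.09 over all genes. Of the 10 intervals, 6 lay above 0 (Fos, Jun, Junb, Atf3, Myc and Ier3) and 4 below (Fosb, Egr1, Nr4a1 and Ier2). The share of all genes with such intervals is not given here, so these counts cannot be read as particular to the members.

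**Figure D1:**
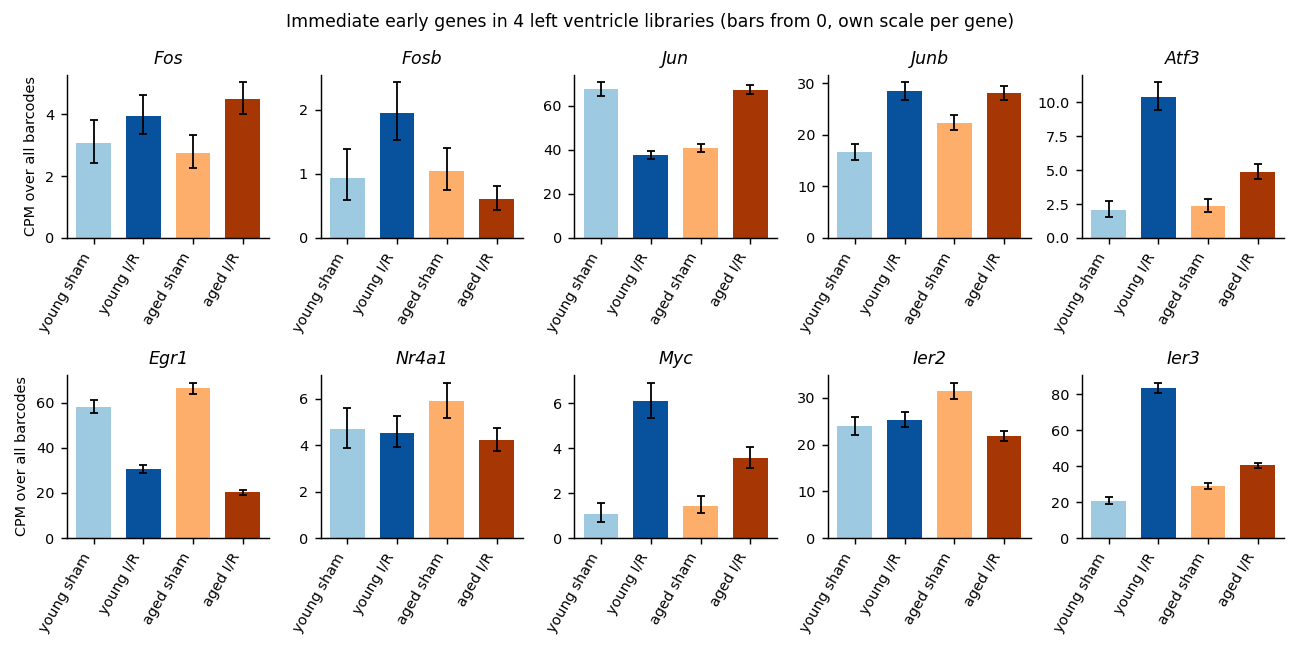
Level of each of the 10 members in CPM over all barcodes (y axis, from 0, with its own scale per gene) in the sham and I/R libraries of young mice and then of aged mice (x axis), with bars for the level and lines for the exact Poisson 95% interval of the count. Atf3, Myc and Ier3 stand highest in young I/R, Egr1 is lower in each I/R library than in the sham library of the same age, and Jun is high in young sham and aged I/R.

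Atf3, a stress-induced repressor and activator, showed the broadest range of the 5 AP-1 members. It had 2.09 CPM in young sham (54 UMIs) against 10.4 CPM in young I/R (414 UMIs), and 2.35 CPM in aged sham (97 UMIs) against 4.88 CPM in aged I/R (326 UMIs). The I/R level was 4.99-fold the sham level in young mice (log2 ratio 2.32, interval 1.91 to 2.76) and 2.08-fold in aged mice (1.06, 0.73 to 1.40). The sham libraries of both ages had about the same level, with an aged over young log2 ratio of 0.17 whose interval, -0.33 to 0.67, includes 0. In young mice 99.3% of genes, and in aged mice 96.2%, had a lower ratio than Atf3.

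Fosb, the FOS paralog that also gives the stable truncated form known from repeated stimulation, was the sparsest member. It had 0.929 CPM in young sham against 1.94 CPM in young I/R, and 1.04 CPM in aged sham against 0.599 CPM in aged I/R, from 24, 77, 43 and 40 UMIs. Its I/R level was 2.09-fold the sham level in young mice (log2 ratio 1.06, 0.39 to 1.79), and 1.74-fold lower in aged mice (-0.80, -1.45 to -0.14). Young I/R thus stood above each of the other libraries in Fosb by more than counting error.

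Jun, the main partner of FOS in AP-1, had 67.4 CPM in young sham and in aged I/R, 37.7 CPM in young I/R and 40.8 CPM in aged sham, from 1742, 4499, 1495 and 1686 UMIs. It was 1.79-fold lower in I/R in young mice (log2 ratio -0.84, -0.94 to -0.74) and 1.65-fold higher in aged mice (0.72, 0.64 to 0.81). In the young comparison 31.5% of all genes had a lower ratio than Jun, so that its ratio was within the range of most genes there, and scaling by gene-wise ratios brings it to -0.41. In the aged comparison 89.5% of genes had a lower ratio. The libraries with the higher Jun levels were those with the lower share of mitochondrial UMIs, and the part of that share in the Jun ratios was not tested.

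Junb, which forms dimers that often oppose those of JUN, was higher in I/R than in sham at both ages. Its levels were 16.6 CPM in young sham against 28.5 CPM in young I/R, and 22.3 CPM in aged sham against 28.1 CPM in aged I/R. The log2 ratio for I/R was 0.78 (0.62 to 0.94) in young and 0.33 (0.22 to 0.45) in aged mice. In CPM the I/R libraries differed by less than counting error (aged over young log2 ratio -0.02, -0.13 to 0.09). Gene-wise scaling adds -0.38 to that ratio, which puts its interval below 0. Jun overlaps the antisense gene Junos and Junb the gene Prdx2 on the opposite strand, and as the use of strand in the counting is not given in the sources used here, the values of Jun and Junb are uncertain to that extent.

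Fos itself, the classical marker of recent stimulation, had I/R over sham ratios under 2-fold at both ages. It had 3.06 CPM in young sham against 3.96 CPM in young I/R, and 2.76 CPM in aged sham against 4.49 CPM in aged I/R (79, 157, 114 and 300 UMIs). The log2 ratio for I/R was 0.37 in young mice (-0.03 to 0.78) and 0.70 in aged mice (0.39 to 1.03). Of all genes, 90.6% had a lower ratio than Fos in young mice and 88.9% in aged mice. Scaling by gene-wise ratios brings the young ratio of Fos to 0.81, with an interval above 0. Neighbours in the order of its 4 CPM levels did not differ beyond counting error. At this depth Fos was found in 0.0857% to 0.324% of barcodes.

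Egr1, the zinc finger factor induced through ERK and serum response factor, was lower after I/R at both ages and had the lowest I/R ratio of the 10 members in each. In young mice its interval overlaps that of Jun. The level of Egr1 was 58.1 CPM in young sham (1502 UMIs) against 30.4 CPM in young I/R (1205 UMIs), and 66.3 CPM in aged sham (2741 UMIs) against 20.4 CPM in aged I/R (1360 UMIs). The level was 1.91-fold lower in young I/R (log2 ratio -0.94, -1.05 to -0.83) and 3.25-fold lower in aged I/R (-1.70, -1.80 to -1.61). All neighbours in the order of its 4 levels differed by more than counting error. In aged mice 0.24% of genes had a lower ratio than Egr1, and in young mice 27.1%, where the median gene was itself lower.

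Nr4a1, the nuclear receptor also called Nur77, had 4.68 CPM in young sham against 4.54 CPM in young I/R, and 5.90 CPM in aged sham against 4.22 CPM in aged I/R. Its log2 ratio in young mice was -0.05 (-0.39 to 0.30), which gives no direction in CPM. With gene-wise scaling this ratio becomes 0.39, with an interval above 0. The aged ratio was -0.48 (-0.74 to -0.23). Ier2, a short gene with 1 exon that codes for a nuclear protein, had a like order: 23.9 and 25.3 CPM in young sham and I/R and 31.5 and 21.8 CPM in aged sham and I/R, with ratios of 0.08 (-0.06 to 0.23) in young and -0.53 (-0.64 to -0.42) in aged mice. For both genes aged sham was the highest of the 4 libraries and aged I/R the lowest, although in CPM aged I/R did not differ from the library next above it beyond counting error. For Nr4a1 that library was young I/R, and the -0.38 that gene-wise scaling adds puts the interval of aged over young I/R below 0.

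Myc had the highest I/R ratio of the 10 members at each age, although its intervals overlap those of Atf3. The levels of Myc were 1.08 CPM in young sham (28 UMIs) against 6.10 CPM in young I/R (242 UMIs), and 1.45 CPM in aged sham (60 UMIs) against 3.56 CPM in aged I/R (238 UMIs). The I/R level was 5.63-fold the sham level in young mice (log2 ratio 2.49, 1.93 to 3.11) and 2.46-fold in aged mice (1.30, 0.88 to 1.73). The sham libraries had an aged over young ratio of 0.42 with an interval, -0.25 to 1.12, that includes 0, so the order of the shams is open to counting error.

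Ier3, the stress-induced survival gene, was higher in I/R at both ages, by a wider margin in young mice. It had 20.8 CPM in young sham (537 UMIs) against 83.4 CPM in young I/R (3310 UMIs), and 29.1 CPM in aged sham (1203 UMIs) against 40.4 CPM in aged I/R (2695 UMIs). The I/R level was 4.01-fold the sham level in young mice (log2 ratio 2.01, 1.87 to 2.14) and 1.39-fold in aged mice (0.47, 0.37 to 0.57). All 4 levels differed from their neighbours in the order by more than counting error.

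Atf3, Myc and Ier3 had the same order of libraries, young I/R, aged I/R, aged sham and young sham from high to low, as did Junb. In CPM the sham libraries cannot be ordered beyond counting error for Atf3 and Myc, nor the I/R libraries for Junb. The neutrophil markers had the same order of libraries: the summed level of 11 genes was 17.2 CPM in young sham against 110.3 CPM in young I/R, and 26.9 CPM in aged sham against 105 CPM in aged I/R. Their sum was near equal in the I/R libraries, with an aged over young log2 ratio of -0.07. That ratio was -1.10 for Atf3, -0.78 for Myc, -1.05 for Ier3 and -0.02 for Junb. All 8 of the neutrophil markers with enough UMIs were higher in I/R at both ages, and 1 of the 11 was at 0 in young sham. Fewer or more cells of a type and less or more RNA per cell cannot be told apart in such sums, and the part of neutrophil RNA in the member ratios was not tested.

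The difference of the I/R ratios between the ages, aged minus young on the log2 scale, was below 0 with its interval in 8 of 10 members. How many of all genes had such an interval is not given here. It was lowest for Fosb (-1.86, -2.77 to -0.95), Ier3 (-1.53, -1.70 to -1.37), Atf3 (-1.26, -1.79 to -0.74) and Myc (-1.20, -1.89 to -0.50). It was above 0 for Jun (1.56, 1.44 to 1.69), and its interval included 0 for Fos (0.33, -0.17 to 0.83). The median was -0.69 over the members and 0.53 over 11881 genes with at least 50 UMIs in every library. The member median thus lay on the other side of 0 from the median gene, while Jun and Fos lay above 0. Between 0.202% and 1.53% of those 11881 genes had a lower difference than Fosb, Ier3, Atf3 and Myc. Fosb and Myc themselves did not reach 50 UMIs in every library. Gene-wise scaling adds 0.43 to every young ratio and -0.09 to every aged one. It thus lowers every difference alike and brings the median gene near 0. With 1 library per group, a difference between ages cannot be told apart from a difference between libraries.

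**Figure D2:**
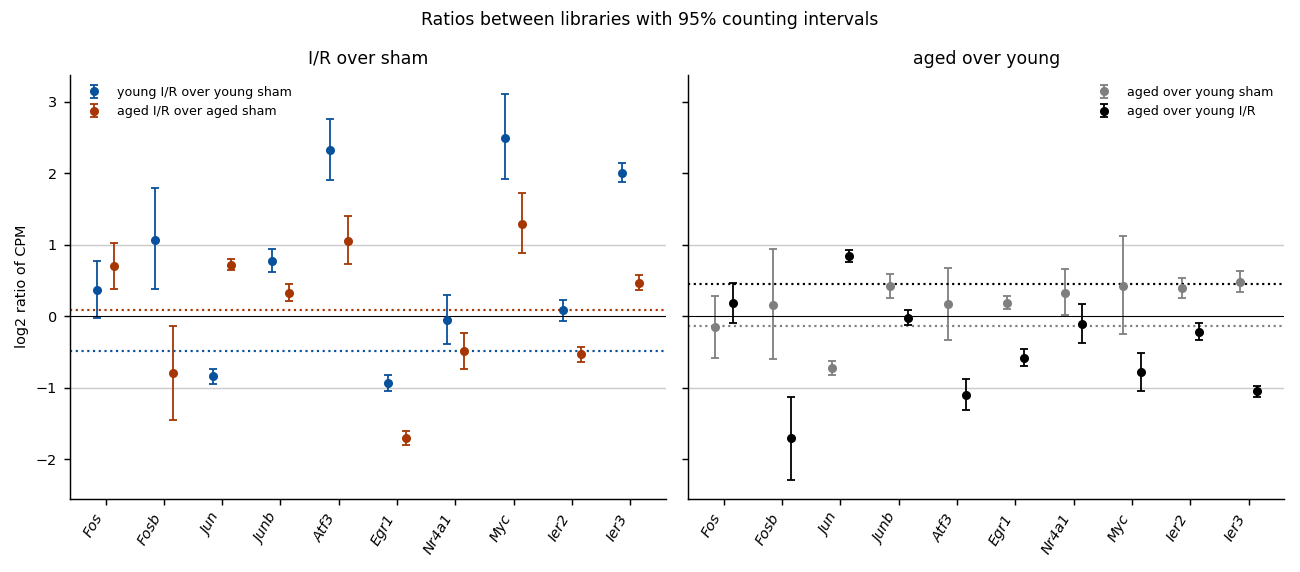
Log2 ratio of CPM (y axis) for each member (x axis) with its 95% counting interval, I/R over sham in young and aged mice on the left and aged over young in sham and I/R on the right. Dotted lines in the color of the points give the median of all genes, at -0.48 and 0.09 on the left and -0.14 and 0.45 on the right, and grey lines mark 2-fold. Atf3, Myc and Ier3 lie at 2.01 or above in young mice, and Fosb and Jun lie on opposite sides of 0 at the 2 ages.

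The same 4 libraries were also compared between the ages within each condition. In sham, 5 members had an interval above 0 in aged over young: Ier3 (log2 ratio 0.49), Junb (0.43), Ier2 (0.40), Nr4a1 (0.33) and Egr1 (0.19). Jun was the 1 member with an interval below 0, at -0.73 (-0.82 to -0.63). Shares of all genes with an interval above or below 0 are not given here. No member differed by 2-fold in sham, where 2.32% of 14170 genes were at least 2-fold higher and 5.73% lower, and the medians were 0.26 over the members and -0.14 over all genes.

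In I/R the members were mostly lower in aged mice. Fosb (-1.70, -2.29 to -1.13), Atf3 (-1.10, -1.31 to -0.88) and Ier3 (-1.05, -1.12 to -0.97) were at least 2-fold lower, which is 3 of 10 members against 1.05% of 14719 genes. Myc (-0.78), Egr1 (-0.58) and Ier2 (-0.22) were lower by less, and Jun alone had an interval above 0 (0.84, 0.75 to 0.92). Fos (0.18), Junb (-0.02) and Nr4a1 (-0.10) had intervals that include 0. No member was at least 2-fold higher, where 18.9% of genes were, and with scaling by gene-wise ratios 9.11% were higher and 3.16% lower, with 4 members lower. The median log2 ratio was -0.40 over the members and 0.45 over all genes.

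Most of the members are short genes, and the median ratio of protein-coding genes differed with gene length. They span 1240 to 47744 bases in the GENCODE annotation of GRCm38, and 8 of 10 span under 20 kb: Ier3 (chr17:35821684-35822923) and Ier2 (chr8:84661331-84662852) are the shortest and Atf3 (chr1:191170296-191218039) the longest. Among protein-coding genes, the median log2 ratio for I/R in young mice was -0.25 for genes under 20 kb, -0.49 for those of 20 to 100 kb and -0.74 for longer ones. The order was the reverse in aged over young I/R, at 0.22, 0.47 and 0.72. It was -0.06, 0.13 and 0.24 in aged I/R over sham, and 0.01, -0.18 and -0.29 in aged over young sham. Of genes under 20 kb, 4.45% were at least 2-fold higher and 16.0% lower in young I/R, and 1.72% lower in aged over young I/R. This split by length was chosen after the values were seen, and the part of gene length in the member ratios was not tested.

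As a group the members did not share a profile. After centring the log2 CPM of each gene over the 4 libraries, the distance of a member from the median of the members ran from 0.24 for Fos to 1.76 for Egr1. The genes nearest to that median among 11867 were Inafm2 (distance 0.036), Zwint (0.043), Usp28 (0.047), Xbp1 (0.047) and Eif5 (0.047), each higher in both I/R libraries than in both sham libraries by a small margin, such as 49.4, 66.5, 49.4 and 65.7 CPM for Xbp1. Summed, the members came to 199 CPM in young sham against 232 CPM in young I/R, and 203 CPM in aged sham against 196 CPM in aged I/R, a narrow range in which the higher genes and the lower genes offset each other.

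Other genes of the pathway were followed as lists, chosen with earlier results of these libraries known. Their counts stand beside shares over all genes of 2.72% higher and 24.5% lower in young I/R, and 4.47% higher and 2.03% lower in aged I/R, and a list with 0 or 1 gene at least 2-fold higher holds too few to be read against those shares. Of the other AP-1 and related leucine zipper genes, 5 of 11 with enough UMIs were at least 2-fold higher in young I/R (Fosl1, Maff, Mafk, Cebpb and Cebpd), 1 was lower (Batf3), and in aged I/R 2 of 12 were higher (Fosl1 and Cebpd). Fosl1, which encodes the FOS relative FRA1, had the highest ratio of any listed gene, with 0.155 CPM in young sham against 4.61 CPM in young I/R (log2 ratio 4.90, 3.52 to 6.79) and 0.193 CPM in aged sham against 1.21 CPM in aged I/R (2.65, 1.60 to 3.91). Batf3 had the lowest young ratio of this list (-1.11) and Jund the lowest aged one (-0.46). The median of the list was 0.92 in young and 0.20 in aged mice, beside -0.48 and 0.09 over all genes.

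Among the EGR, NR4A and KLF relatives 2 of 9 were at least 2-fold higher in young I/R, Nr4a3 and Egr2, and none in aged I/R. Nr4a3, a paralog of Nr4a1, had 1.16 CPM in young sham against 10.1 CPM in young I/R (log2 ratio 3.12, 2.59 to 3.71) and 2.59 CPM in aged sham against 3.34 CPM in aged I/R (0.37). Nr4a2 was at the other end in young mice (-0.78), and in aged mice the ends were Klf4 (0.46) and Egr3 (-0.63). Paralogs of a family thus stood at different places, with Nr4a1 itself near 0 in young mice. The medians of the list were -0.03 and 0.04.

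Feedback inhibitors, which shut early signalling off, gave 4 of 17 at least 2-fold higher in young I/R (Socs3, Dusp5, Dusp2 and Nfkbia) and 1 of 17 in aged I/R (Socs3). Socs3, the inhibitor of cytokine signalling through STAT3, was 6.44-fold higher in young I/R (1.86 to 12.0 CPM) and 3.91-fold higher in aged I/R (2.95 to 11.5 CPM). Dusp1, a phosphatase for stress-activated kinases, was lower in I/R at both ages, at 49.2 and 26.6 CPM in young sham and I/R and 47.0 and 19.5 CPM in aged sham and I/R (log2 ratios -0.89 and -1.26). Like Egr1, it was lowest in aged I/R. The medians of the list were -0.09 in young and 0.10 in aged mice.

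Of 28 further immediate early genes, 11 were at least 2-fold higher in young I/R (Il6, Ccl2, Ccn2, Hbegf, Plaur, Cxcl1, Arc, Csrnp1, Gadd45g, Ptgs2 and Phlda1) and 4 in aged I/R (Il6, Ccl2, Cxcl1 and Ppp1r15a), with none at least 2-fold lower. The cytokine Il6 had the highest ratio of the list at both ages, 3.40 (2.22 to 4.88) and 2.51 (1.29 to 4.01), on levels of 0.145 to 2.44 CPM. The chemokine Ccl2 had 2.79 CPM in young sham against 22.6 CPM in young I/R, and 3.97 CPM in aged sham against 11.3 CPM in aged I/R. Plk2 was lowest in young (-0.72) and Rhob in aged mice (-0.84). In aged over young I/R 7 of the 28 were at least 2-fold lower (1.05% of all genes) and none higher (18.9%), with Arc at the low end (-2.31, -2.87 to -1.78), and the list median was -0.48 beside 0.45 over all genes.

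The 19 upstream kinases and factors, among them the ERK kinases, CREB and serum response factor, included no gene at least 2-fold higher at either age. Stat3 was highest in young I/R (67.3 to 99.0 CPM, log2 ratio 0.56) and Elk1 lowest (-1.12), and in aged mice the ends were Srf (0.92) and Mapk3 (-0.49). Partners and antagonists of MYC gave 0 of 7 at least 2-fold higher in young I/R and 1 of 7 in aged I/R, the antagonist Mxd1 (3.72 to 7.68 CPM). Of 12 MYC target genes none was at least 2-fold higher in young I/R, where Odc1 was the highest (28.5 to 56.2 CPM, log2 ratio 0.98). In aged I/R 1 was, the nucleolar gene Ncl (186 to 424 CPM, 1.19). The lowest of these targets were Ccnd2 in young I/R (-0.59) and Eif4e in aged I/R (-0.59). The median of the target list was 0.42 in young mice, beside -0.48 over all genes, and 0.14 in aged mice, beside 0.09.

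**Figure D3:**
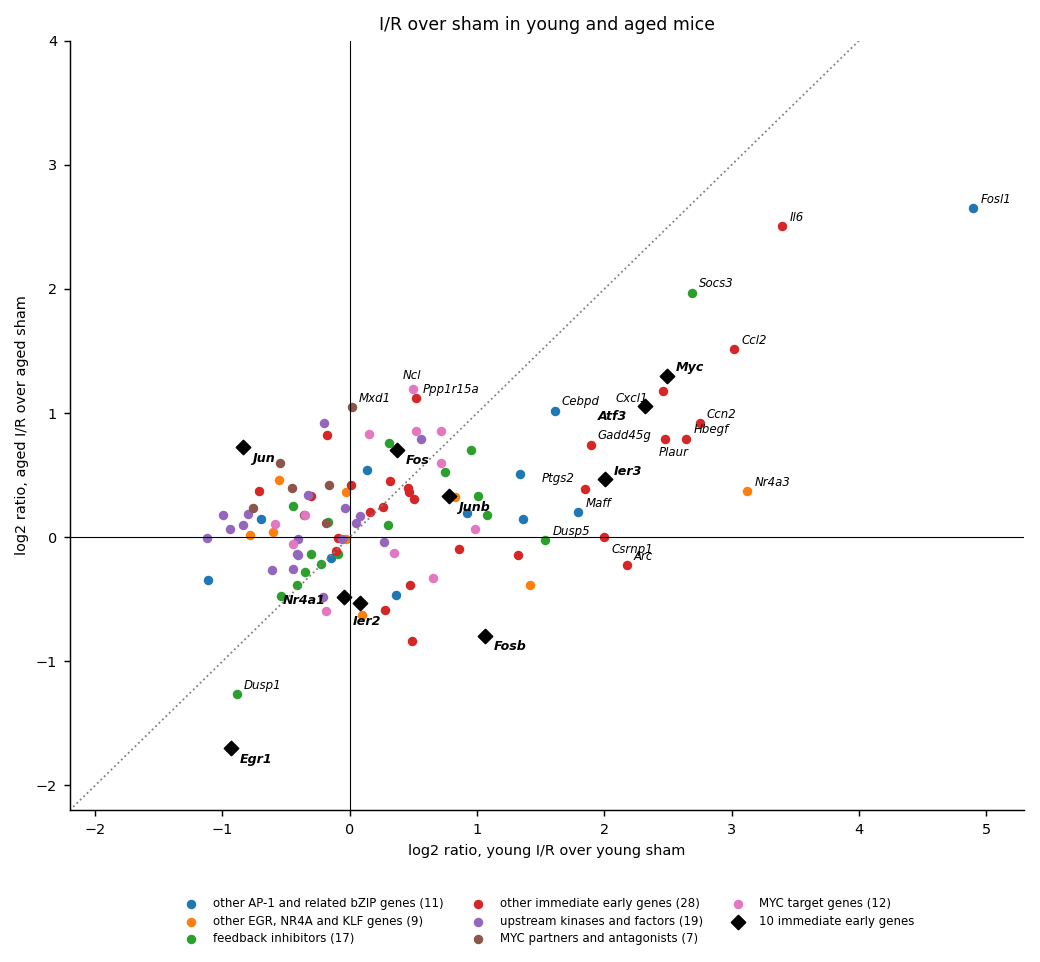
Log2 ratio of I/R over sham in young mice (x axis) and aged mice (y axis) for the 10 members (black diamonds) and 103 of the 106 listed pathway genes that had at least 50 UMIs in each comparison (points colored by list), with the dotted line at equal ratios and labels on the points with the widest ratios. Fosl1, Il6, Socs3, Myc and Atf3 are high at both ages and below the line, Egr1 and Dusp1 are low at both ages, and 55 of the listed genes lie above the line and 48 below it.

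Within a library the members were scattered thinly over barcodes. From 5.33% of barcodes in young sham to 13.1% in aged I/R held any UMI of a member, with 1.04 to 1.10 member UMIs in such a barcode on average, and at most 0.905% held several members. These 2 libraries had like summed member levels, 199 and 196 CPM, but 244 and 675 UMIs in the median barcode. Such shares of barcodes therefore cannot be compared between libraries as levels. Barcodes with a Fos UMI (79, 157, 114 and 295 in the 4 libraries) held 9, 12, 13 and 59 UMIs of the 9 other members. The summed level of those members was 1.78-fold (0.81 to 3.37) that of the other barcodes in young sham, 0.77-fold (0.40 to 1.35) in young I/R, 1.18-fold (0.63 to 2.02) in aged sham, while aged I/R had 1.27-fold (0.96 to 1.64). Each of these 4 intervals includes 1, so that joint expression in a barcode was not detected for the sum. Endothelial, fibroblast and macrophage markers were also joined only weakly in barcodes, as given below. Whether a barcode stands for a cell was not tested, so this result says little of joint expression in cells. Of the single members, Fosb had intervals above 1 in young sham, from 1 UMI (43.3-fold, 1.05 to 266), and in young I/R, from 2 UMIs (15.5-fold, 1.84 to 57.9). Its interval in aged sham included 1, and aged I/R had 0 Fosb UMIs in Fos barcodes. The median fold over all genes with enough UMIs in the same split was 0.345 to 0.975.

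Levels were also taken in sets of barcodes that share marker content, which are ranges of content and not cell types. A barcode entered the endothelial, fibroblast, macrophage or mural set with UMIs of at least 2 markers of that class and under 2 of any other, and the cardiomyocyte set with at least 5 cardiomyocyte markers and no marker of another class. From 70.2% to 94.2% of the barcodes in the first 4 of these sets lay exactly at the limit, and each of these 5 sets had a median of 9 to 12 of the 15 cardiomyocyte markers. For the endothelial, fibroblast and macrophage classes a marker said little about the rest of its barcode: barcodes with a UMI of the endothelial gene Pecam1 had 1.03 to 1.09 times the other endothelial marker RNA of barcodes without it, those with the fibroblast gene Dcn 1.06 to 1.26 times the other fibroblast marker RNA, and those with the macrophage gene C1qa 1.09 to 1.61 times that of macrophages. Barcodes with the neutrophil gene S100a8 had 1.34 to 2.30 times the other neutrophil marker RNA in young I/R and the aged libraries, and 9.79 times (2.65 to 25.3) in young sham, from 4 UMIs. The value of 2.30 was that of aged sham, from 6 UMIs, with an interval of 0.84 to 5.02 that includes 1. Levels in the sets can therefore not be read as levels in cell types. Neutrophil sets held 3 to 123 barcodes and lymphocyte sets 0 to 3, too few for a level.

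Most member levels in a set lay within counting error of the level over all barcodes of its library. Ier3 in young I/R was 78.4 CPM in the endothelial set, the lowest, and 92.6 CPM in the macrophage set, the highest, beside 83.4 CPM over all barcodes. Jun in aged I/R ranged from 62.2 to 69.5 CPM over the sets. Spreads were wider for Egr1 in young sham (18.7 CPM in the macrophage set and 69.0 CPM in the mural set), Nr4a1 in young sham (4.24 to 18.7 CPM), Junb in young I/R (24.4 to 50.9 CPM) and Ier2 in aged sham (23.5 to 52.0 CPM). The macrophage set gave 1 end of each, from 4 UMIs for Egr1, 4 for Nr4a1, 11 for Junb and 31 for Ier2. The interval of Junb there, 25.4 to 91.2 CPM, holds its library level of 28.5 CPM. Ier3 in young sham ran from 9.34 CPM in the macrophage set, from 2 UMIs, to 28.5 CPM in the fibroblast set. Of 240 values of a member in a set and library, 229 had an interval that holds the level over all barcodes of the library. The 6 sets counted here include the other barcodes, those in no marker set, with 51.6% to 57.5% of the UMIs of a library. As that set is much of the whole, and sparse members have wide intervals, this count cannot show that levels were equal between sets. In cardiomyocyte-set barcodes the I/R over sham log2 ratios of Jun were -0.86 in young and 0.80 in aged mice, those of Egr1 -0.87 and -1.84, and those of Ier3 2.01 and 0.63. Sparser members had wide intervals there, with aged ratios of -1.46 (-2.61 to -0.46) for Nr4a1, against -0.48 over all barcodes, and 0.25 for Myc, from 10 UMIs in aged I/R and with an interval that includes 0, against 1.30. The endothelial set gave -0.94 and 0.58 for Jun, -1.24 and -1.74 for Egr1, and 1.84 and 0.39 for Ier3.

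**Figure D4:**
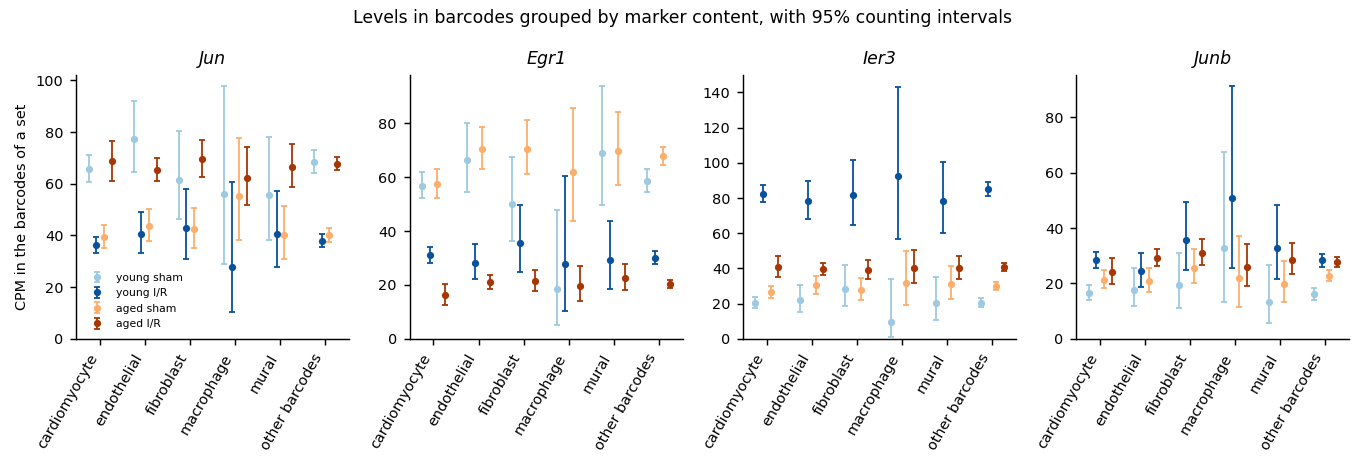
Level in CPM (y axis, from 0) of Jun, Egr1, Ier3 and Junb in the barcodes of 6 sets by marker content (x axis), with the 4 libraries in color and lines for the exact Poisson 95% interval. The set of other barcodes holds those in no marker set. Ier3 in young I/R lies between 78.4 and 92.6 CPM over the sets, while Egr1 in young sham runs from 18.7 CPM in the macrophage set, where the interval is wide, to 69.0 CPM in the mural set.

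Marker RNA over all barcodes also differed between the libraries. Cardiomyocyte markers summed to 95585 CPM in young sham against 82888 CPM in young I/R, and 86817 CPM in aged sham against 104589 CPM in aged I/R, endothelial markers to 1069 to 1467 CPM, fibroblast markers to 623 to 1131 CPM, macrophage markers to 274 to 524 CPM and mural markers to 585 to 831 CPM, with young I/R lowest in each of these summed lists. Single cardiomyocyte markers went both ways. In young I/R over sham 8 of 15 were higher, and in aged I/R over sham 7 of 15. Lymphocyte markers were at 2.65 to 12.8 CPM and erythroid genes ranged from 2568 CPM in young sham down to 1026 CPM in aged I/R. The part of these differences in the member ratios was not tested.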

How the data were processed

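The authors prepared left ventricle suspensions on the 10x Chromium system and, per the labels, processed reads with Cell Ranger 6.0.2 on mm10. The deposited values are counts of UMIs per gene and barcode in filtered matrices, with no scaling, and symbols and barcodes came from the deposited lists beside them. The labels name nuclear RNA, the paper single cells. Counts were summed over all barcodes, with no search for doublets, and given as CPM with the exact Poisson 95% interval. Ratios carry the exact conditional (Clopper-Pearson) interval, and differences of ratios a normal interval from the 4 counts. Comparisons with all genes used genes with at least 50 UMIs in the 2 libraries. Depth was 25836175 to 66767829 UMIs per library, with 1 library per group, so no test was run. Members and lists were chosen with earlier results of these data known. Named are the members, the 5 nearest profiles and the summed markers. The highest and lowest gene of a list are named for most comparisons of I/R over sham and for few of aged over young. Other listed genes at least 2-fold apart, and the single markers, were named after their values were seen. Alternatives were gene-wise scaling, a total without 22 abundant transcripts, barcodes with at least 200 genes, equal weight of barcodes, barcodes of 1 library only, 1.5-fold, limits of 20 and 200 UMIs and at least 3 markers. Formulas were tested on simulated data. Python 3.11.15, numpy 2.4.6, scipy 1.17.1, pandas 2.3.3 and matplotlib 3.10.9 were used, with GENCODE M21 positions (GRCm38) and RefSeq promoters (GRCm38.p6).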

Additional observations from a re-analysis of the deposited data

Results flagged for a closer look

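Fosb and Jun had I/R over sham ratios of opposite sign in young and aged mice, each with a counting interval that leaves out 0. The aged minus young difference of the log2 ratios was -1.86 for Fosb (higher in I/R in young, lower in aged mice) and 1.56 for Jun (lower in I/R in young, higher in aged mice). The median of all genes had opposite signs as well, at -0.48 in young and 0.09 in aged mice. Of 11881 genes, 88.0% had a lower difference than Jun and 0.202% a lower one than Fosb. With 1 library per group the difference was not tested. Under each of the 5 other ways of scaling or choosing barcodes both genes kept these signs.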

How the results depend on the processing

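No ratio whose counting interval leaves out 0 changed sign under the 5 alternatives of scaling and barcodes. Scaling by gene-wise ratios adds 0.43, -0.09, 0.14 and -0.38 to every log2 ratio, in the order I/R in young mice, I/R in aged mice, age in sham and age in I/R. It moved the member median to 1.01 in young I/R over sham and to -0.78 in aged over young I/R, and left 1 member, Myc, at least 2-fold higher in aged I/R, as did the total without abundant transcripts (1 member), with 3.50% of all genes higher under each. It also took 20 of the 40 member ratios outside their counting intervals, the total without abundant transcripts 9, barcodes with at least 200 genes 1, and equal weight of barcodes and barcodes of 1 library only 0. At 1.5-fold, 5 members were higher (5.65% of all genes) and 2 lower (44.1%) in young I/R, 4 higher (15.4%) and 2 lower (8.22%) in aged I/R, 1 lower (18.2%) in aged over young sham, and 1 higher (41.1%) and 4 lower (3.51%) in aged over young I/R. With a limit of 200 UMIs the share of all genes at least 2-fold higher was 2.94% and lower 1.14% in aged I/R over sham, and 1.07% and 3.56% in aged over young sham. With 20 UMIs 1.58% of genes were at least 2-fold lower in aged over young I/R. With at least 3 markers, 53 of 120 levels in the endothelial, fibroblast and macrophage sets left their intervals, on few UMIs. No paired analysis was possible because each group is 1 library. Depth limits the sparse genes, such as Fosb at 24 to 77 UMIs per library and the listed genes Fosl1 and Il6 at 4 to 8 UMIs in the sham libraries, and levels in single barcodes. UMIs show counting error only, and the spread between mice is not known.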
